A study of Mus musculus with 52 samples.

Results

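The 8 genes described here, Cd40, Cd80, Cd86, Cd83, Cd70, Tnfsf9, Dll4 and Nectin2, encode surface proteins through which dendritic cells contact T cells. They were taken by symbol from the table of UMI counts, in which all 8 had a row among 20995 genes with at least 1 count. The cells were CD103+ conventional type 1 dendritic cells (cDC1), grown from C57BL/6 mouse bone marrow with FLT3L and GM-CSF and then sorted, and all 13 groups of 4 libraries share that origin. At 24 h the groups were PGE2 with poly I:C, poly I:C alone, PGE2 alone and untreated cells, with poly I:C at 10 ug/ml for the last 4 h. At 4 h they were control BRAFV600E melanoma conditioned medium (CM), CM of the same tumour type lacking Ptgs1 and Ptgs2, PGE2 after an antagonist of 1 of its receptors EP1 to EP4 or of EP2 and EP4 together, PGE2 alone and untreated cells. PGE2 was given at 100 ng/ml, and antagonists at 5 uM from 30 min before it. The EP1 antagonist was SC-19220 and the EP2 antagonist PF-04418948. For the combined group the sample titles name EP2 and EP4, whereas the treatment field lists SC-19220 together with the EP4 compound, so whether those cells received the EP2 or the EP1 antagonist is uncertain. That group is called by its title below.

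T cells need a signal from the antigen receptor and a second one from the dendritic cell. CD80 and CD86 give that signal through CD28, ligands of the TNF family such as CD70 and 4-1BBL prolong it, and CD40 receives help from CD4 T cells. Poly I:C, a mimic of viral double-stranded RNA, drives maturation of cDC1 through TLR3, and PGE2 acts through the receptors EP1 to EP4, of which EP2 and EP4 raise cAMP.

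The libraries held 42666 to 438491 counts with a median of 295484.5, and 2 of them (library A of untreated cells at 4 h and library A of the EP4 antagonist) were under 100000. A count of 0 in a library of median depth allows up to 10.2 CPM, by 3 counts, which covers counting error only. Levels below are CPM, UMI counts relative to library size after TMM scaling over all 52 libraries. The TMM factors were 0.6115 to 0.6344 in the 8 poly I:C libraries and at least 1.009 in the other libraries. For poly I:C against untreated cells the median log2 fold change of all genes was -0.10 with TMM and -0.88 with library totals alone, and the values below are relative to the TMM median. Of all 5273 genes tested in it 1651 were called higher and 1777 lower with TMM, and 975 higher and 3087 lower with library totals alone. For PGE2 against untreated cells at 4 h, 300 of 5754 were higher and 193 lower with TMM, and 237 higher and 332 lower with library totals. Of the cDC1 marker list all 12 genes were detected, among them Irf8 at group means of 2234 to 4509 CPM. Irf8 was the most abundant of the list in every group. Naaa, at group means of 129 to 1350 CPM, reached the next highest level but was not second in every group. The cDC1 sums below therefore follow Irf8 most, and single genes of the list can go the other way. The 5 B cell markers in the table had no count in either poly I:C group. In bulk samples, fewer cells of a type and less RNA per cell cannot be told apart.

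**Figure D1:**
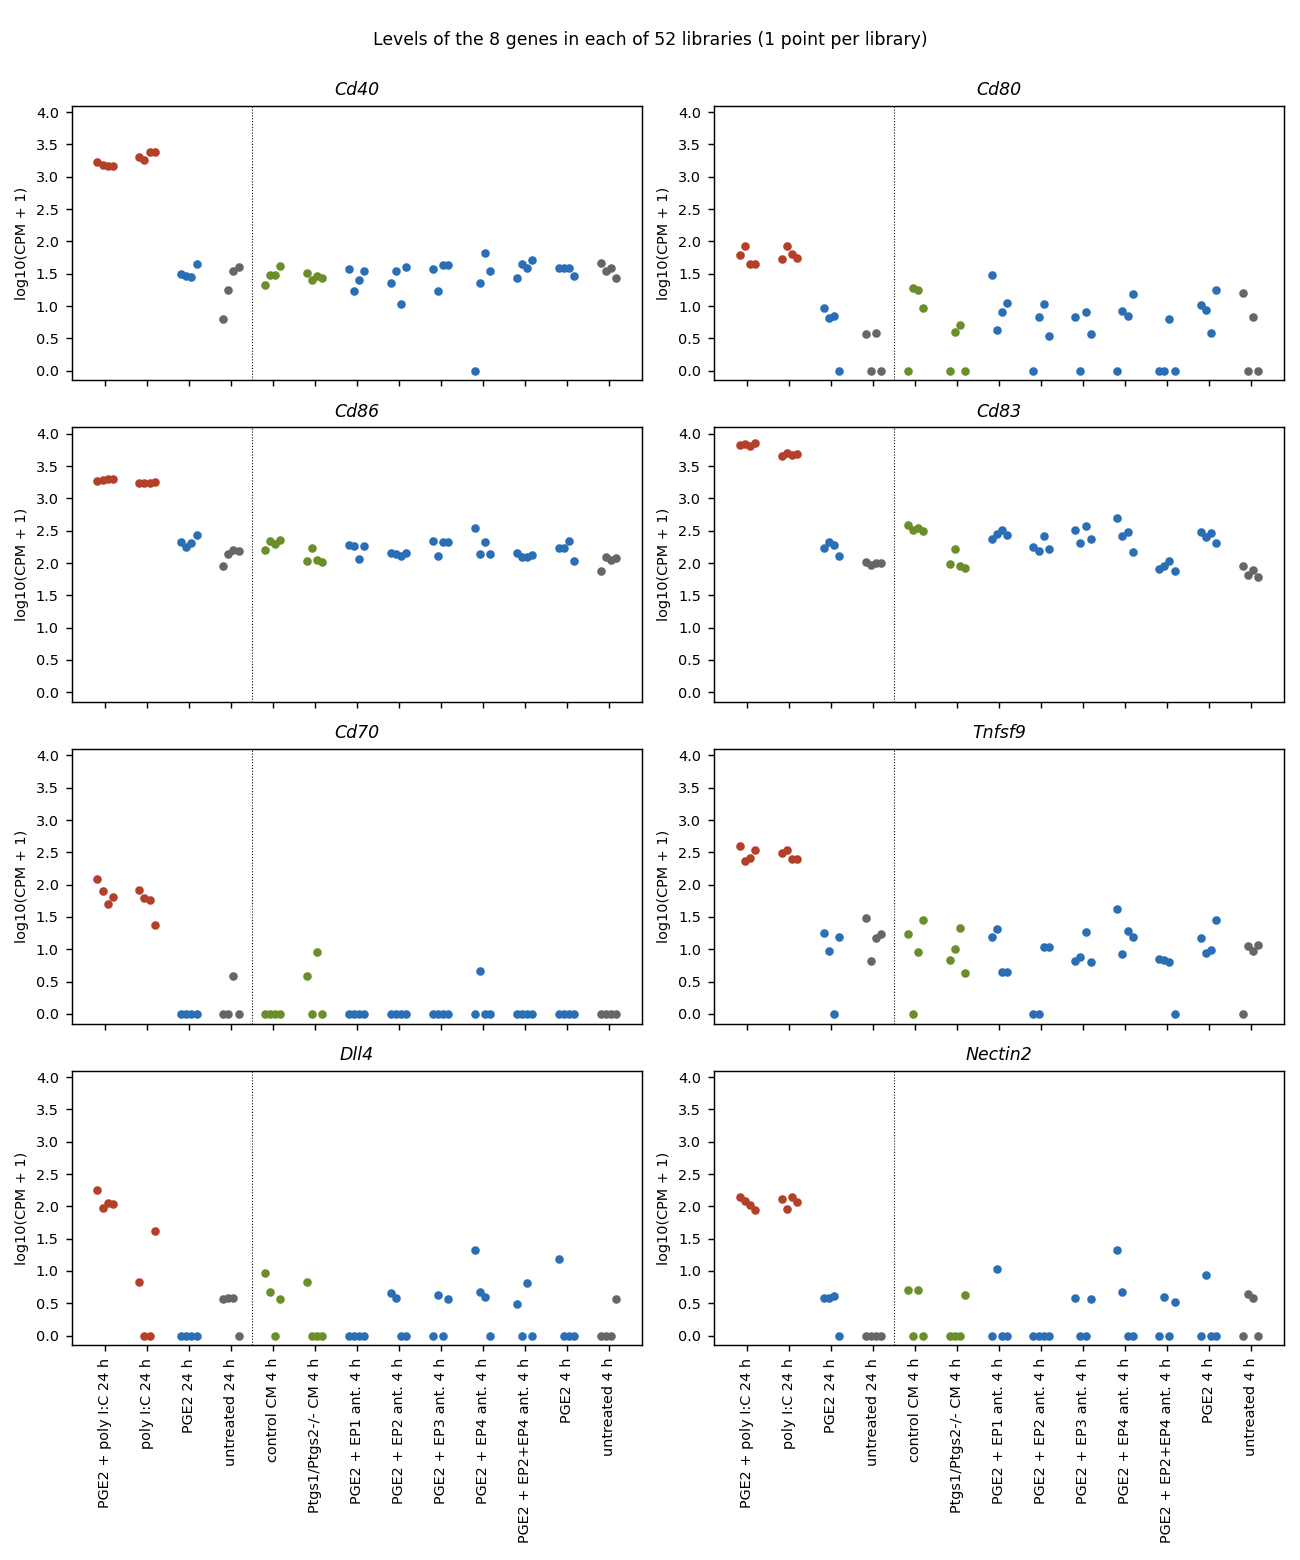
Level of each gene in every library, as log10 of CPM plus 1, with the 24 h groups left of the dotted line and the 4 h groups right of it. The 8 poly I:C libraries stand above all others for every gene but Dll4, which had no count in 2 of the 4 libraries of poly I:C alone.

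The highest group mean of each of the 8 genes was in a group with poly I:C. At 24 h, Cd40, Cd83 and Cd86 were called higher with poly I:C than in untreated cells, in a comparison in which 31.3% of 5273 genes were called higher. The other 5 genes were called higher too, but they passed the filter on low counts through groups with poly I:C. For Cd80, Cd70, Nectin2 and, in 8 of its 9 libraries over the minimum, Tnfsf9 this was one of the groups compared, so they had to differ and their calls support nothing. Dll4 passed only through PGE2 with poly I:C, which is outside this comparison. Cd40, the receptor for CD40 ligand on helper T cells (chromosome 2, 165055627 to 165072948, plus strand, GRCm38), had 2015, 1795, 2400 and 2380 CPM with poly I:C and 5.37, 16.9, 33.8 and 39.4 CPM in untreated cells. The groups lay far apart, with a log2 fold change of 6.40 ± 0.17 (SE, adjusted p = 1.87e-85). Cd83, which encodes a surface protein of mature dendritic cells (chromosome 13, 43784775 to 43803132, plus strand), averaged 4750 ± 200 CPM with poly I:C and 98.04 ± 3.77 CPM in untreated cells (SD, n = 4 each), 5.48 ± 0.11 on the log2 scale (adjusted p = 2.13e-102). Cd86, one of the CD28 ligands (chromosome 16, 36603869 to 36666081, minus strand), averaged 1736 ± 22.3 CPM with poly I:C and 133 ± 31.1 CPM in untreated cells (3.60 ± 0.13, adjusted p = 2.46e-67).

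The other CD28 ligand, the TNF family ligands and the adhesion gene had group means of 0 to 16.4 CPM in untreated cells at 24 h. Cd80 (chromosome 16, 38455561 to 38496335, plus strand) had 49 counts over the 4 libraries of poly I:C and 2 in those of untreated cells. Cd70, the ligand of CD27 (chromosome 17, 57145997 to 57149777, minus strand), had 42 counts with poly I:C and 1 in untreated cells, a ratio of 74.8 with a counting interval of 12.7 to 3020. Tnfsf9, which encodes 4-1BBL (chromosome 17, 57105325 to 57107757, plus strand), had 308, 339, 247 and 251 CPM with poly I:C and 29.6, 5.64, 14.1 and 16.4 CPM in untreated cells (3.95 ± 0.28, adjusted p = 2.62e-29). Nectin2, a ligand of DNAM-1 and of TIGIT (chromosome 7, 19716644 to 19750483, minus strand), had 128, 90.3, 138 and 114 CPM with poly I:C and no count in untreated cells, at least 54.6-fold by 3 counts over the group. Tnfsf9, Dll4 and Nectin2 each overlap 1 gene on the opposite strand, and whether counting used the strand is not given in the sources used here.

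Markers of several cell types moved with poly I:C, and their part in these results was not tested. The cDC1 list (12 genes, none at 0) summed to 4389 to 5290 CPM with poly I:C and 7142 to 7566 CPM in untreated cells. The plasmacytoid dendritic cell list (6 genes, none at 0) summed to 627 to 825 CPM with poly I:C and 113 to 177 CPM in untreated cells. Most of that was Bst2, at 607 CPM with poly I:C and 97.2 CPM in untreated cells, while Siglech had 1 count with poly I:C and 15 counts in untreated cells. Genes of this list need not move together. Tcf4 stood at 7.21 CPM in untreated cells at 24 h, with group means of 6.48 to 68.1 CPM over all groups. The macrophage and monocyte list (10 genes) summed to 442 to 649 CPM with poly I:C and 1065 to 1524 CPM in untreated cells, with Mertk, Cd14 and C1qc at 0 in both. The cDC2 list (5 genes) summed to 5.81 to 28.5 CPM with poly I:C and 59.1 to 101 CPM in untreated cells, with Clec10a and Sirpa at 0 in both. None of these 4 lists overlapped between the groups.

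Dll4, a Notch ligand (chromosome 2, 119325784 to 119335962, plus strand), was the gene of the 8 whose poly I:C libraries overlapped those of untreated cells. It had 5.81, 0, 0 and 41.0 CPM with poly I:C (10 counts, 9 of them in library D) and 2.69, 2.82, 2.82 and 0 CPM in untreated cells (3 counts). The call (2.22 ± 0.88, adjusted p = 0.0215) ended without library D of poly I:C, where the log2 fold change was -0.28 (adjusted p = 0.876). It ended likewise with library totals (adjusted p = 0.115), with DESeq2 (adjusted p = 0.111) and without library D of untreated cells (adjusted p = 0.0508). Over its alternatives the adjusted p ran from 0.00459 to 0.876.

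The combined treatment was first set against poly I:C alone, which compares levels and not the size of the response to poly I:C. Cd83 was called higher and Cd40 lower with PGE2 and poly I:C than with poly I:C alone, where 5.03% of genes were called higher and 5.65% lower. Dll4 was called higher as well, but it passed the filter only through PGE2 with poly I:C, where it is high, so it is not counted against that share. It had 179, 91.6, 111 and 108 CPM with PGE2 and poly I:C, against 5.81, 0, 0 and 41.0 CPM with poly I:C. All 4 libraries with PGE2 stood above all 4 without it, at 104 counts (36, 21, 20 and 27) against 10 (1, 0, 0 and 9), a ratio of 9.42 with a counting interval of 4.92 to 20.2. The log2 fold change was 3.21 ± 0.47 (adjusted p = 2.08e-08), in a test that the filter let Dll4 enter only because of that group. With no filter on any gene it was 3.22 (adjusted p = 1.64e-09). Without library D of poly I:C, which leaves 1 count in that group, it was 5.74, and the highest adjusted p over all alternatives was 0.0119.

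Cd83 had 6637, 6855, 6561 and 7160 CPM with PGE2 and poly I:C, against 4505, 4989, 4715 and 4793 CPM with poly I:C. The groups did not overlap (0.52 ± 0.08, adjusted p = 7.28e-08). Cd40 had 1717, 1518, 1449 and 1462 CPM with PGE2 and poly I:C, against 2015, 1795, 2400 and 2380 CPM with poly I:C. It was the 1 gene of the 8 called lower, again without overlap (-0.48 ± 0.10, adjusted p = 0.000134). Cd86 averaged 1947 ± 78.1 CPM with PGE2 and poly I:C and 1736 ± 22.3 CPM with poly I:C (SD, n = 4 each). Its libraries did not overlap, but the difference of 0.17 did not pass the test (adjusted p = 0.321).

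The other 4 genes did not pass the test, and their 95% intervals show how large a difference these data allow. Tnfsf9 averaged 307 ± 76.5 CPM with PGE2 and poly I:C and 286 ± 44.7 CPM with poly I:C, with an interval of -0.26 to 0.48 on the log2 scale. Nectin2 stood at 113 ± 21.5 CPM with PGE2 and poly I:C and 118 ± 20.6 CPM with poly I:C (-0.62 to 0.48). For Cd80 the interval was -0.86 to 0.63, and for Cd70 it was -0.23 to 1.25.

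**Figure D2:**
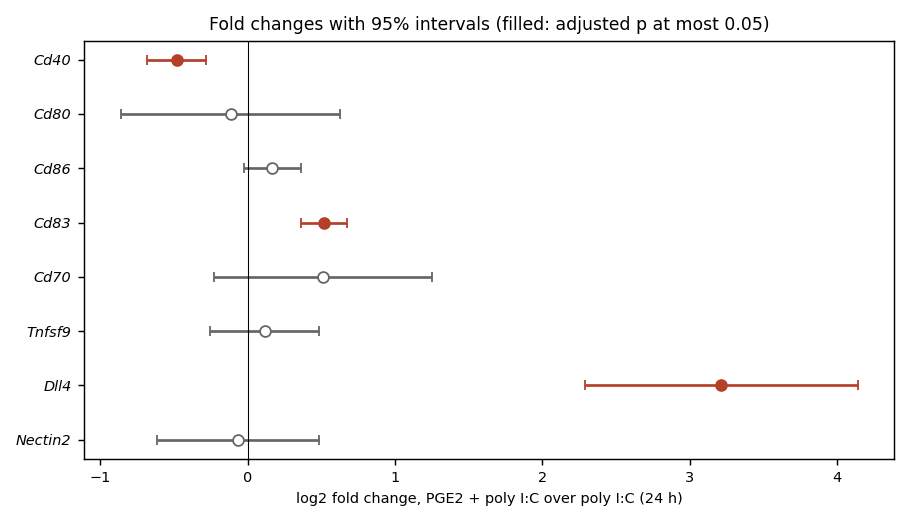
Log2 fold change of each gene, PGE2 with poly I:C over poly I:C alone at 24 h, with 95% intervals. Dll4 (3.21) and Cd83 (0.52) lie above 0 and Cd40 (-0.48) below it, and the intervals of the other genes include 0. Dll4 entered this test only through PGE2 with poly I:C, where it is high.

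Markers of other cells moved between these groups as well, and their part in the results was not tested. The cDC2 list (5 genes) summed to 38.9 to 61.1 CPM with PGE2 and poly I:C and 5.81 to 28.5 CPM with poly I:C, without overlap. Its most abundant gene with PGE2 and poly I:C was Irf4, at 27.5 CPM with both and 8.71 CPM with poly I:C, and its Mgl2 had no count in either group. The plasmacytoid dendritic cell list (6 genes) summed to 881 to 1232 CPM with PGE2 and poly I:C and 627 to 825 CPM with poly I:C, again without overlap, of which Bst2 made up 1020.0 CPM with both and 607 CPM with poly I:C. Siglech had 1 count with both and 1 count with poly I:C. The macrophage and monocyte list (10 genes, with 4 at 0 in either group) summed to 410 to 477 CPM with PGE2 and poly I:C and 442 to 649 CPM with poly I:C, and the cDC1 list to 4923 to 5726 CPM with both and 4389 to 5290 CPM with poly I:C, and these overlapped.

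Set against PGE2 alone, Cd40, Cd83 and Cd86 were called higher with PGE2 and poly I:C, where 30.8% of genes were (1622 higher and 1794 lower with TMM, 890 higher and 3085 lower with library totals). The other 5 genes were called higher too, but passed the filter through the poly I:C groups, so they had to differ and are not counted against that share. Dll4 and Cd70 had no count with PGE2 alone, and stood at least 50.6-fold and at least 32.6-fold higher with both. The interaction of PGE2 and poly I:C, in which 0.853% of genes were called higher, was 5.73 ± 1.79 for Dll4 (adjusted p = 0.0487), again a gene that entered the test only through PGE2 with poly I:C. With no count in the PGE2 group, that value depends on the prior count, and the call ended with no filter on low counts (adjusted p = 0.124) and without any 1 of 14 of the 16 libraries, with adjusted p between 0.00484 and 0.124 over its alternatives. For Cd83 the interaction was -0.36 (adjusted p = 0.296, 0.159 to 0.85 over its alternatives). A larger effect of PGE2 on Cd83 with poly I:C than without it was thus not seen. For Cd86 the interaction was -0.55 ± 0.18 (adjusted p = 0.0738) and for Cd40 -0.94 ± 0.35 (adjusted p = 0.138). Cd86 passed without library C of untreated cells (adjusted p = 0.0483) or library B of PGE2 (adjusted p = 0.0465), in a range of 0.0465 to 0.491 over its alternatives. Cd40 passed without library D of untreated cells (adjusted p = 0.0398), in a range of 0.0398 to 0.507.

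**Figure D3:**
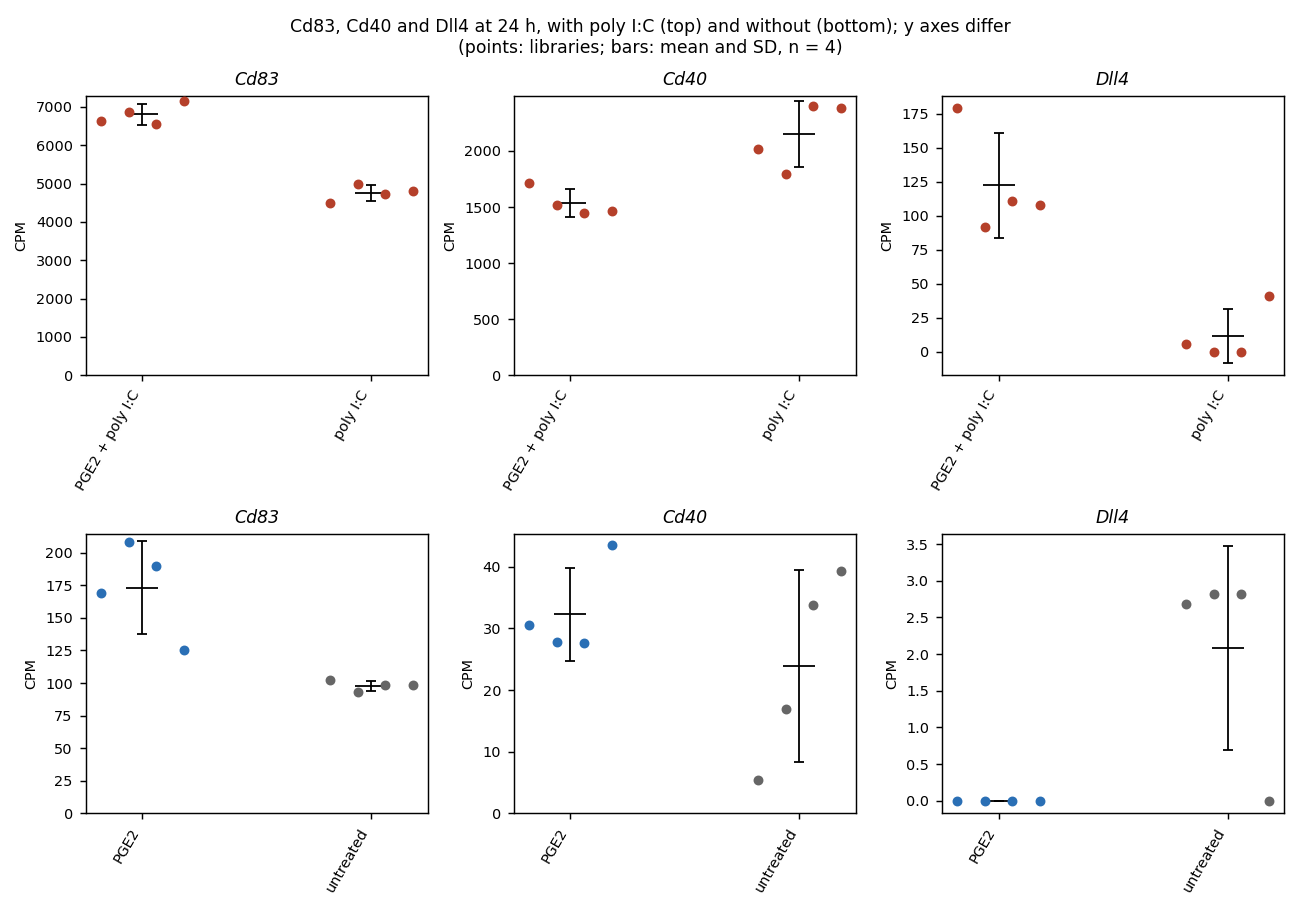
CPM of Cd83, Cd40 and Dll4 at 24 h, with poly I:C in the top row and without it in the bottom row, on separate axes. Dll4 lies between 91.6 and 179 CPM in the 4 libraries with PGE2 and poly I:C and at or under 41.0 CPM with poly I:C alone.

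The sequences before the RefSeq starts of Dll4, Nectin2 and Cd80 are shown because these 3 genes were near 0 in untreated cells at 24 h and, of them, Dll4 was called higher with PGE2 and poly I:C than with poly I:C, and they are the 3 of the 8 with an entry. Each is 250 bases on the gene's strand in GRCm38.p6 (chr2:119325534-119325783 plus, chr7:19749574-19749823 minus and chr16:38458683-38458932 plus), with a match to the NF-kB consensus or to TGACG in capitals.
Dll4: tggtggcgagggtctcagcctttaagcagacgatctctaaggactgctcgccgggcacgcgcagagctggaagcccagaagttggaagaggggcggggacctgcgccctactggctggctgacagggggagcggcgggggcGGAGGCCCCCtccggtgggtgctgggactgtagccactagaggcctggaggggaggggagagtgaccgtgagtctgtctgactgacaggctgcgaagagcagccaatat
Nectin2: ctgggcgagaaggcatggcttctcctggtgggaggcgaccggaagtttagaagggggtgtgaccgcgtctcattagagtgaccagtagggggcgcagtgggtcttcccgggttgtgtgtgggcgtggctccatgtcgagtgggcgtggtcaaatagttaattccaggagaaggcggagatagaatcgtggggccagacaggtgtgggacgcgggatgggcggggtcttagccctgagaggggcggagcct
Cd80: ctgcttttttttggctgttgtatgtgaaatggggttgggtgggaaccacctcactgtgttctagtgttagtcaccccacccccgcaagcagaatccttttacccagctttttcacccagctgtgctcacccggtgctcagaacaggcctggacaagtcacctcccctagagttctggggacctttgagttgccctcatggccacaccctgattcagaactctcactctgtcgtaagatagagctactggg
Searched on both strands, the Dll4 stretch held 1 NF-kB match, 109 to 100 bases before the start, and the others none. Of 32851 promoters, 7.25% held such a match. None of the 3 held TGACG, the core of a cAMP response element, which was in 17.8% of promoters. A match describes letters and no binding. The Dll4 stretch ends directly before the gene coordinates given above, which come from GENCODE. Those of Nectin2 and Cd80 lie inside them, since the RefSeq starts differ from the GENCODE starts. Sequence before the GENCODE starts of Nectin2 and Cd80 was not searched.

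PGE2 without poly I:C was examined at both times, and Cd83 was the gene called higher at each. At 4 h, 3 of the 8 genes passed the filter on low counts (Cd40, Cd86 and Cd83), and 1 was called higher with PGE2 than in untreated cells, where 5.21% of 5754 genes were. Cd83 had 306, 256, 294 and 199.9 CPM with PGE2, against 90.5, 63.7, 77.1 and 60.8 CPM in untreated cells. The groups did not overlap (1.94 ± 0.24, adjusted p = 1.07e-10). Cd86 averaged 167 ± 46.7 CPM with PGE2 and 107 ± 21.8 CPM in untreated cells, which did not pass the test (0.59 ± 0.22, adjusted p = 0.0715). Without library D of PGE2 it did (adjusted p = 0.0199, over all alternatives 0.0199 to 0.405). Cd40 stood at 35.3 ± 5.03 CPM with PGE2 and 35.6 ± 7.83 CPM in untreated cells (adjusted p = 0.942). The cDC1 list (12 genes, none at 0) summed to 4254 to 4926 CPM with PGE2 and 7390 to 8080 CPM in untreated cells, without overlap. Within the list Irf8 stood at 2540 CPM with PGE2 and 4324 CPM in untreated cells, while Flt3 went the other way (233.6 and 207.6 CPM). The part of the list in these values was not tested.

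At 24 h, Cd83 and Cd86 were called higher with PGE2, where 4.74% of genes were. Cd83 had 169, 208, 189.9 and 125.5 CPM with PGE2, against 102, 93.0, 98.6 and 98.5 CPM in untreated cells (0.88 ± 0.15, adjusted p = 1.84e-06). Cd86 had 214, 178, 205 and 270.3 CPM with PGE2, against 88.7, 135, 158 and 151 CPM in untreated cells (0.71 ± 0.15, adjusted p = 0.000298). Neither gene's groups overlapped. Beside this the cDC1 list summed to 4537 to 4793 CPM with PGE2 and 7142 to 7566 CPM in untreated cells. Of other cells, the macrophage and monocyte list summed to 1665 to 2034 CPM with PGE2 and 1065 to 1524 CPM in untreated cells, mostly Lyz2, with Mertk, C1qb and C1qc at 0 in both. The cDC2 list summed to 104 to 121 CPM with PGE2 and 59.1 to 101 CPM in untreated cells, mostly Cd209a, with Clec10a at 0 in both. The T and NK cell list (5 genes) summed to 16.6 to 22.2 CPM with PGE2 and 2.82 to 8.45 CPM in untreated cells, mostly Cd3g, with Nkg7 at 0 in both. None of these 4 lists overlapped, and their part in the results was not tested. The effect of PGE2 on Cd83 was smaller at 24 h than at 4 h, by -1.08 ± 0.29 on the log2 scale (adjusted p = 0.0135, at most 0.0463 over its alternatives), in a test in which 2.24% of 5403 genes were called lower (114 higher and 121 lower with TMM, 176 higher and 90 lower with library totals). For Cd86, called at 24 h only, the effect of PGE2 did not differ between the times by the same test (0.11, adjusted p = 0.921). Untreated cells at 24 h and at 4 h did not differ by the test for any of the 3 genes tested at 4 h, where 4.33% of genes were called. Cd83 stood at 98.04 ± 3.77 and 73.0 ± 13.7 CPM (adjusted p = 0.272). In all comparisons of 24 h with 4 h, time cannot be told apart from anything else that differed between the cultures.

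Conditioned medium asks whether tumour cells change the same genes, and whether they need Ptgs1 and Ptgs2 to do so. Cd83 and Cd86 were called higher in control CM than in Ptgs1/Ptgs2-/- CM, where 2.43% of genes were (140 higher and 87 lower with TMM, 120 higher and 121 lower with library totals). Cd83 had 389.7, 321, 349.9 and 311 CPM in control CM, against 94.2, 167, 87.9 and 82.1 CPM in Ptgs1/Ptgs2-/- CM (1.65 ± 0.20, adjusted p = 6.05e-10). Cd86 had 160.0, 219, 198 and 224 CPM in control CM, against 106, 173, 112 and 102 CPM in Ptgs1/Ptgs2-/- CM. Library B of the deficient CM lay inside the control range. That call (0.71 ± 0.20, adjusted p = 0.0161) ended with no filter on low counts (adjusted p = 0.0742), without library B or D of control CM (adjusted p = 0.0694 and 0.0842) and without library A, C or D of the deficient CM (adjusted p = 0.111, 0.0627 and 0.109). Over all its alternatives the adjusted p ran from 0.00157 to 0.111. The cDC1 list summed to 5255 to 5858 CPM in control CM and 6234 to 8657 CPM in Ptgs1/Ptgs2-/- CM. The cDC2 list summed to 43.8 to 81.9 CPM in control CM and 30.3 to 40.0 CPM in Ptgs1/Ptgs2-/- CM, mostly Cd209a. Neither list overlapped, and their part in the results was not tested.

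Against untreated cells, where 4.81% of genes were called higher (277 higher and 158 lower with TMM, 228 higher and 240 lower with library totals), control CM raised Cd83 by 2.30 ± 0.23 (adjusted p = 2.32e-14) and Cd86 by 0.83 ± 0.21 (adjusted p = 0.00294). The cDC1 list summed to 5255 to 5858 CPM in control CM and 7390 to 8080 CPM in untreated cells, without overlap. In Ptgs1/Ptgs2-/- CM neither was called, where 0.0869% of genes were. Cd83 stood at 108 ± 39.5 CPM in that CM and 73.0 ± 13.7 CPM in untreated cells (0.65, adjusted p = 0.566). Over its alternatives that log2 fold change ran from 0.34 to 0.77, so a smaller rise of Cd83 is not excluded. The missing Ptgs genes belong to the tumour cells, so these libraries cannot check that label.

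**Figure D4:**
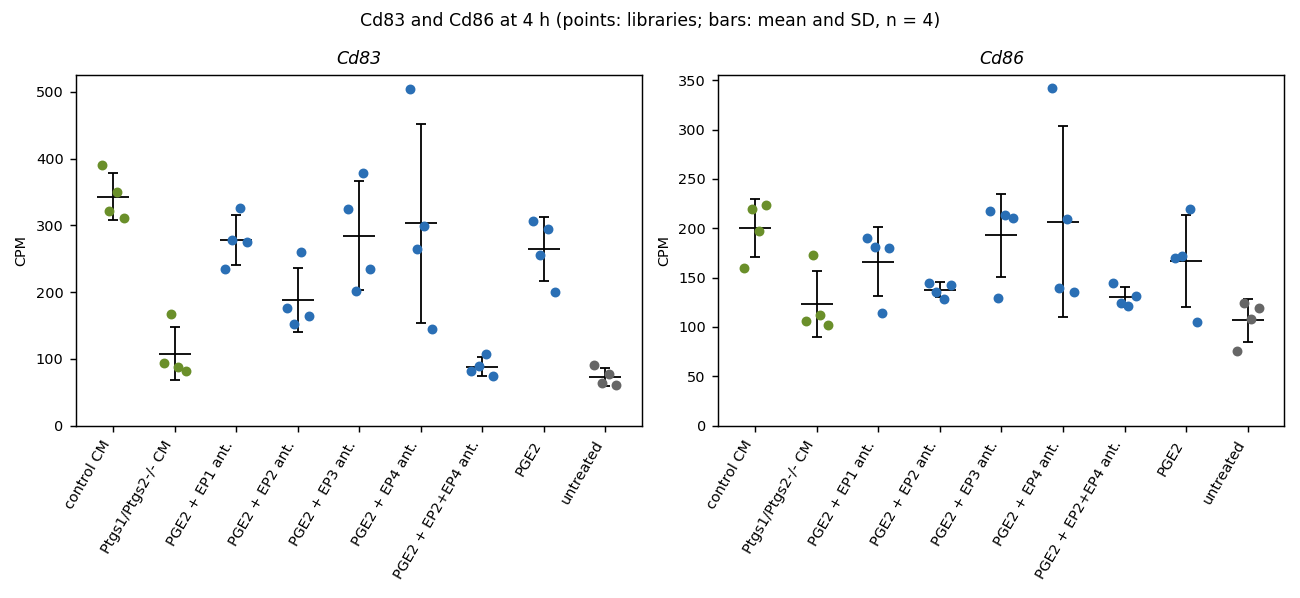
CPM of Cd83 and Cd86 in the 9 groups at 4 h, with libraries as points and the mean and SD of 4 libraries as bars. Cd83 lies at 74.7 to 108 CPM with PGE2 and the EP2 and EP4 antagonists, beside 60.8 to 90.5 CPM in untreated cells.

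The antagonists ask which receptor carries the effect. Cd83 had 81.3, 89.3, 108 and 74.7 CPM with the EP2 and EP4 antagonists and PGE2, against 306, 256, 294 and 199.9 CPM with PGE2. The groups did not overlap, and Cd83 fell by 1.60 ± 0.21 on the log2 scale (adjusted p = 1.72e-09), where 5.32% of genes were called lower (242 higher and 306 lower with TMM, 384 higher and 259 lower with library totals). The cDC1 list summed to 6091 to 6506 CPM with the EP2 and EP4 antagonists and 4254 to 4926 CPM with PGE2, and the macrophage and monocyte list to 1149 to 1547 CPM with the antagonists and 839 to 1050.0 CPM with PGE2. Neither list overlapped. Within the cDC1 list Irf8 stood at 3670 CPM with the antagonists and 2540 CPM with PGE2. Its Flt3 (144.7 and 233.6 CPM) and Itgae (292.5 and 316.9 CPM) went the other way. The part of the 2 lists in the result was not tested. Cd83 with both antagonists did not differ from untreated cells by the test (0.34, adjusted p = 0.696), where 0.799% of genes were called. With a single antagonist none of the 3 tested genes was called against PGE2, in comparisons in which 0 (EP1), 0.417 (EP2), 0.0695 (EP3) and 0.0348% (EP4) of genes were called.

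For Cd83 the single antagonists averaged 278 ± 37.7 CPM (EP1), 188 ± 48.4 CPM (EP2), 285 ± 81.5 CPM (EP3) and 303 ± 149 CPM (EP4), against 264 ± 47.9 CPM with PGE2. The 95% intervals of the log2 differences were -0.28 to 0.46, -0.89 to -0.14, -0.28 to 0.43 and -0.39 to 0.40 in that order, not adjusted for the number of genes. That of EP2 lay below 0, with an adjusted p of 0.304. Between antagonist groups, 3 pairs were compared, chosen after the data were seen, each adjusted over all genes. Cd83 was lower with both antagonists than with EP2 alone (-1.09 ± 0.21, adjusted p = 0.000224, where 1.55% of genes were called lower) and than with EP4 alone (-1.61 ± 0.21, adjusted p = 1.33e-08, where 3.42% were). With library totals the genes called against EP2 alone were 51 higher and 74 lower (34 and 89 with TMM), and against EP4 alone 186 higher and 172 lower (118 and 197 with TMM). The cDC1 list stood at 6091 to 6506 CPM with both antagonists, against 5014 to 5743 CPM with EP2 alone and 4120 to 4614 CPM with EP4 alone, and its part was not tested. The EP2 and EP4 groups did not differ by the test (-0.52, interval -0.91 to -0.13, adjusted p = 0.738), where 0.0174% of genes were called. The EP4 group holds the shallowest library, at 42666 counts.

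The other 5 genes were too low at 4 h for the fit, at group means of at most 20.01 CPM (Tnfsf9 with the EP4 antagonist). For them 70 two-sided exact permutation tests of 4 against 4 libraries were made, including untreated cells at 24 h against 4 h. Of these 55 were planned, and the rest compared the antagonist pairs chosen after the data were seen. In the 70 tests, 2 reached the smallest p that the design allows, 0.029, and none was called by edgeR without the filter. Both were for Tnfsf9, which had 6.10, 5.76, 5.39 and 0 CPM with the EP2 and EP4 antagonists, against 14.1, 7.64, 8.66 and 27.8 CPM with PGE2. The second set it against 40.29, 7.33, 17.95 and 14.46 CPM with the EP4 antagonist alone. That pair was not planned, and its highest value is from the library of 42666 counts. The Tnfsf9 counts were 3, 2, 2 and 0 with the EP2 and EP4 antagonists and 3, 2, 3 and 5 with PGE2. With the EP4 antagonist alone they were 2, 2, 6 and 3. These counts overlap, so the separation in CPM depends on library depth. The exact p-values are unadjusted, and in 70 tests about as many can reach the smallest p by chance. Cd70 had no count in 7 of the 9 groups at 4 h.

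Other genes of the same pathways were counted from lists. Of the CD40 and NF-kB signalling list, 6 of 14 tested genes were higher with PGE2 than in untreated cells at 4 h and none lower, where 5.21% of all genes were higher and 3.35% lower, with a list median of 0.90 beside -0.01 for all genes. They included Relb (1.55 ± 0.34) and Traf1 (1.48 ± 0.30), a NF-kB subunit and an adaptor of TNF receptors. With the EP2 and EP4 antagonists 8 of 14 were lower than with PGE2, where 5.32% of all genes were, Traf1 by -1.64 ± 0.27. At 24 h, 16 of 16 were higher with poly I:C than in untreated cells, also in sign with library totals. Of all genes 31.3% were higher. In the fit of PGE2 and untreated cells at both times, 11 of the list passed the filter. Some of the 16 may thus have entered only through groups with poly I:C, so the 16 are not counted against that share. With PGE2 and poly I:C, 6 of 16 were higher than with poly I:C, where 5.03% of all genes were.

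Of the costimulation and coinhibition ligands, 9 of 12 tested were higher and 2 lower with poly I:C than in untreated cells. Of all genes 31.3% were higher and 33.7% lower, and Havcr2 among the ligands turned sign with library totals. In the fit of PGE2 and untreated cells at both times, 7 of the list passed the filter. Some of the 12 may thus have entered only through groups with poly I:C, so the 9 are not counted against that share. With PGE2 and poly I:C against poly I:C, Havcr2 and Pvr (2 of 12) were higher and Slamf7 and Lgals9 (2 of 12) lower, where 5.03% of all genes were higher and 5.65% lower. Pvr, which encodes another ligand of DNAM-1, stood at 278 ± 30.8 CPM with PGE2 and poly I:C and 143 ± 20.8 CPM with poly I:C (0.95 ± 0.21, adjusted p = 0.000396). Slamf7 stood at 242 ± 37.2 CPM with both and 522 ± 55.4 CPM with poly I:C (-1.11 ± 0.17, adjusted p = 3.73e-08). At 4 h, PGE2 against untreated cells gave 1 of 7 tested higher (Havcr2) and 3 of 7 lower (Cd24a, Slamf7 and Vsir), with a list median of -0.54 beside -0.01 for all genes, of which 3.35% were lower. Slamf7 stood at 27.6 ± 9.27 CPM with PGE2 and 129 ± 30.7 CPM in untreated cells at 4 h (-2.36 ± 0.325, adjusted p = 1.59e-09). With the EP2 and EP4 antagonists these 3 genes were higher than with PGE2, where 4.21% of all genes were. Cd24a is also on the cDC1 list, whose sum moved the same way in both comparisons.

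Of the Notch list, none of 6 tested genes was called between PGE2 with poly I:C and poly I:C. There 5.03% of all genes were called higher and 5.65% lower, so none of 6 is near that share. Dll4, which is not on the list, was higher in that comparison. Neurl3, a ubiquitin ligase gene, was the 1 of 9 higher with PGE2 at 4 h, where 5.21% of all genes were (1.02 ± 0.19, adjusted p = 1.59e-05) and was lower with the EP2 and EP4 antagonists (-1.13 ± 0.18, adjusted p = 2.26e-07). Of the T cell adhesion list, 7 of 14 were higher and 5 lower with poly I:C than in untreated cells, where 31.3% of all genes were higher and 33.7% lower, although Alcam and Selplg turned sign with library totals. With PGE2 at 4 h none of 14 was higher and 3 (Cadm1, F11r and Itgae) were lower than in untreated cells, where 3.35% of all genes were lower. Cadm1 and Itgae are also on the cDC1 list, whose sum was lower in that comparison too. With PGE2 and poly I:C 1 of 14 was higher than with poly I:C, where 5.03% of all genes were, namely Icam1, the ligand of LFA-1, at 4279 ± 183 CPM with both and 3584 ± 344 CPM with poly I:C (0.26 ± 0.08, adjusted p = 0.0319).

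Across the 13 group means, the pattern most like Cd40 was that of H2-D1 (Pearson r of 0.9964), most like Cd86 that of Relb (0.9938), most like Cd83 that of Cd274 (0.9924) and most like Tnfsf9 that of Nr4a3 (0.9878), among 5722 genes. These are descriptions over 13 points on 1 TMM scale, with the highest level of each of these genes in a poly I:C group.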

How the data were processed

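Bulk 3' RNA-seq of sorted mouse cDC1 was analysed from the deposited table of UMI counts per gene, 1 column per library (52 libraries). Per the labels' protocols, the authors made these counts with the Drop-seq pipeline on Ensembl release 75 annotation from NextSeq 500 reads; the submitters' processing notes name DESeq2 1.14.1 and GRCm38.p6. The aligner is not given in the sources used here. The table had 23136 lines; 1 with a text entry was left out, and 20 with date-like names (0.105% of counts) were named in no result.

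Counts were tested in R 4.3.3 by edgeR 4.0.16 quasi-likelihood (TMM, filterByExpr by group, robust), with Benjamini-Hochberg adjustment over all genes tested and a threshold of 0.05. The 36 libraries at 4 h (5754 genes), the 16 at 24 h (5273) and the PGE2 and untreated groups at 24 h and 4 h (5403) were fitted jointly. Adjusted p-values are from this test except where another setting stands beside them. SE is the log2 fold change over the root of F, and 95% intervals come from it. Genes under the filter were compared by exact permutation. Alternatives were library totals, DESeq2 1.42.0, no filter, a replicate block, other subsets of libraries and leaving out each library. The code was tested on simulated data.

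The labels call the replicates biological but do not say that they came from separate animals or cultures, so the p-values may reflect technical spread only. No pair of libraries of a group agreed within counting noise. The 8 genes and the lists were chosen with earlier results of these data known. The text names every one of the 8 genes, genes of the lists that were called, and for genes of a like pattern those with the highest correlation. Coordinates are from GENCODE vM21, and promoters from RefSeq, with 3 of 8 genes matched.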

Additional observations from a re-analysis of the deposited data

Results flagged for a closer look

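In 8 of 68 sets of 4 libraries of a group, 1 library stood apart from the other 3 by a gap test that flags about 1 in 20 sets by chance. For Cd40 this was library D of PGE2 at 4 h (27.8 CPM, the others 37.5 to 38.2). For Cd86 it was library B of Ptgs1/Ptgs2-/- CM (173 CPM, the others 102 to 112), library C of the EP1 antagonist (114.5 CPM) and library B of the EP3 antagonist (129.8 CPM). For Cd83 it was the same library B of Ptgs1/Ptgs2-/- CM (166.5 CPM, the others 82.1 to 94.2). For Tnfsf9 it was library C of the EP3 antagonist (17.5 CPM, 5 counts) and library D of the EP2 and EP4 antagonists (0 CPM). For Dll4 it was library D of poly I:C (41.0 CPM, 9 counts, the others 0 to 5.81).

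The effect of PGE2 differed between conditions by a test of the difference for 2 genes. For Dll4 it was larger with poly I:C than without, by 5.73 on the log2 scale, with no count in the PGE2 group. Dll4 entered that test only through the group with both, and the call was lost with no filter (adjusted p = 0.124, over its alternatives 0.00484 to 0.124) and without any 1 of 14 of the 16 libraries. For Cd83 the effect at 24 h minus that at 4 h was -1.08, where time cannot be told apart from other differences between the cultures.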

How the results depend on the processing

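None of the 168 correlations of same-letter deviations was over 0.1. Their mean was 0.0107 at 4 h and 0.016 at 24 h, against -0.00341 and -0.00535 for pairs of other letters. At such low counts paired samples can also correlate weakly, so pairing by replicate letter is not excluded. The replicate block changed no call of the 8 genes (Dll4 interaction 5.76, adjusted p = 0.041). Among the counts of the 8 genes called, no filter gave 1 for control CM against Ptgs1/Ptgs2-/- CM, 0 for the interaction, and 0 with edgeR for the genes under the filter. Leaving out 1 library gave 1 to 2 for PGE2 against untreated cells at 4 h and for control CM against Ptgs1/Ptgs2-/- CM, and 0 to 2 for the interaction. DESeq2 gave no adjusted p for Dll4 in the interaction, and so no count there. Sign changes were among differences that were not called, except for Dll4 with poly I:C. Library totals gave -0.029 for Cd40 with PGE2 at 4 h. For the EP4 antagonist against PGE2, Cd83 stood at -0.012 with no filter, -0.14 without the 2 shallow libraries and -0.0028 with only the groups compared, and Cd86 at -0.063 without the shallow libraries. For the combined antagonists against EP4 alone, Cd40 stood at -0.12 without the shallow libraries and -0.012 with only the groups compared. Log2 differences that changed sign without 1 library spanned these ranges: PGE2 against untreated, 4 h (Cd40 -0.041 to 0.18), control CM against untreated, 4 h (Cd40 -0.34 to 0.018), Ptgs-deficient CM against untreated, 4 h (Cd86 -0.11 to 0.21), PGE2 with EP1 antagonist against PGE2, 4 h (Cd83 -0.013 to 0.15, Cd86 -0.21 to 0.12), PGE2 with EP3 antagonist against PGE2, 4 h (Cd40 -0.18 to 0.16, Cd83 -0.082 to 0.20), PGE2 with EP4 antagonist against PGE2, 4 h (Cd40 -0.55 to 0.36, Cd83 -0.14 to 0.21, Cd86 -0.077 to 0.25), PGE2 with EP2 and EP4 antagonists against PGE2, 4 h (Cd40 -0.036 to 0.28), control CM against Ptgs-deficient CM, 4 h (Cd40 -0.052 to 0.30), EP2 antagonist against EP4 antagonist, 4 h (Cd40 -0.80 to 0.14), EP2 and EP4 antagonists against EP4 antagonist, 4 h (Cd40 -0.25 to 0.67), poly I:C against untreated, 24 h (Dll4 -0.28 to 2.69), PGE2 with poly I:C against poly I:C, 24 h (Cd80 -0.36 to 0.059, Nectin2 -0.20 to 0.031, Tnfsf9 -0.032 to 0.23), PGE2 effect at 24 h minus PGE2 effect at 4 h (Cd40 -0.021 to 0.66, Cd86 -0.073 to 0.28). With only the groups compared, 13 differences fell under the filter and gave no value, DESeq2 gave no adjusted p for 8 differences, and Cd70 had no count in PGE2 or untreated cells at 24 h without library C of untreated cells. Low counts limit Cd80, Cd70, Tnfsf9, Dll4 and Nectin2 at 4 h.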
